A study of Macaca nemestrina with 58 samples.

Results

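Vaginal pinch biopsies taken after DMPA at the doses labelled 1.5 and 2.5 were compared with biopsies of the same pig-tailed macaques taken before treatment. DMPA is depot medroxyprogesterone acetate, an injectable progestin contraceptive. The samples were chosen by their titles: every array labelled DMPA 1.5 or 2.5 at the time 2D2, and every baseline array of the same animals. They are 17 of the 58 arrays of the series: 6 arrays at 2D2, with 3 animals at 1.5 (BB405, BB521 and BB981) and 3 at 2.5 (BB0499, BB0540 and PHQ1), and 11 baseline arrays. By cycle phase, 5 baseline arrays were taken in the early follicular, 1 in the late follicular, 2 in the early luteal and 3 in the late luteal phase. Of the animals, 5 had 2 baseline arrays and BB521 had 1. The labels give neither a unit for the dose nor an age, and the labels leave the codes 1D4 and 2D2 unexplained. The design text puts the DMPA biopsies 2 weeks after the second injection. The 3 animals at the dose labelled 0.5 were left out of the comparison and are described only beside it. Since no animal went untreated to the later time, effects of the drug cannot be told apart from those of time or of taking biopsies again.

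The vagina is lined by a stratified squamous epithelium that is renewed from a dividing basal layer. Estrogen is known to thicken this epithelium, and its cells change as they move up: they switch keratins, join by desmosomes, store lipid and proteins for a cornified envelope, and release proteases and protease inhibitors that control their shedding. Progestins given without estrogen lower ovarian estrogen output, and thinning of the vaginal epithelium of macaques after progestin is a known effect.

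The arrays carry probes designed for the rhesus macaque, a close relative of Macaca nemestrina, and their number limits the precision. Values are used on the log2 scale of the authors' table, where a difference of 1 is a doubling. Array medians ranged from 6.07 to 6.25 over these 17 arrays. The early follicular baseline array of BB981 stood somewhat apart, with a median correlation of 0.843 with the other arrays against 0.871 to 0.919 for the rest. RNA quality also differed between the groups. For the GAPDH control transcript the signal of its 3' probe set minus that of its 5' probe set, which grows as RNA is degraded or shortened, lay between 1.30 and 2.14 with a median of 1.60 at baseline and between 2.17 and 3.98 with a median of 2.26 at 2D2. Every 2D2 array was above every baseline array, and the 2D2 array of BB0540 was the highest. The mean change was 0.96 ± 0.56 (SD, n = 6 animals), higher in 6 of 6, and the two-sided exact permutation test gave a p of 0.00206, the smallest that the design can give, and 0.00412 after adjustment over 2 control transcripts. The actin control had a change of 0.31 ± 0.32 (SD), higher in 5 of 6 animals, with an exact p of 0.00617, also 0.00617 after adjustment.

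**Figure D1:**
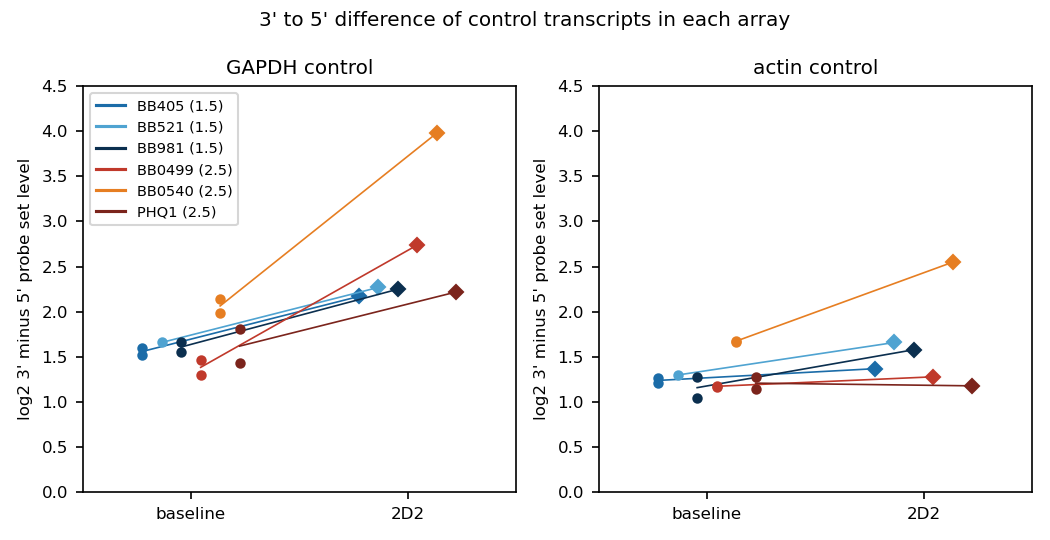
Signal of the 3' minus that of the 5' probe set for the control transcripts GAPDH (left) and actin (right), on the log2 scale, in each baseline array (circles) and 2D2 array (diamonds), coloured by animal with the dose label in brackets; lines join each animal's baseline mean to its 2D2 array. The GAPDH difference was higher at 2D2 in 6 of 6 animals, most in BB0540 at 3.98.

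As a check of the tissue label, the markers of squamous epithelium were among the brightest genes at baseline. Over 8 measured squamous markers the mean level of an array lay between 12.1 and 13.13 at baseline and between 8.54 and 9.61 at 2D2, and 7 of the 8 fell. The biopsies also held stroma and blood. The mean of 4 fibroblast markers ranged from 7.88 to 12.29 at baseline and from 8.67 to 12.77 at 2D2, that of 3 smooth muscle markers from 5.31 to 10.5 and from 5.17 to 11.65, and none of these 7 markers passed the test. In such bulk samples fewer cells of a type and less RNA per cell cannot be told apart.

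Against their own baselines, the 2D2 biopsies had lost most of the signal of the upper squamous layers. The median log2 change was -1.65 for genes of mitosis and -0.53 for genes of DNA replication, and some columnar and secretory genes were higher. Of 31624 probe sets tested in limma with the animal as a block, 7320 (23.1%) passed at an adjusted p under 0.05, 3946 higher (12.5%) and 3374 lower (10.7%). Each named gene was read from its brightest probe set, and 2941 of 11244 genes (26.2%) passed, 1481 higher (13.2%) and 1460 lower (13.0%). Of these called genes 1367 had another kept probe set. In 788 of them another probe set was called the same way, and in 41 the opposite way. Among the genes kept, the falls were the larger. Of these genes, 207 fell at least 4-fold (1.84%) and 43 rose at least 4-fold (0.382%), and the median log2 change over all genes was 0.04. In 435 genes (3.87%) every 2D2 array lay below every baseline array, and in 261 (2.32%) every 2D2 array lay above. Genes were kept by their mean over the 17 arrays, 11 of them baseline. A gene high only at baseline passes that filter more readily than one high only at 2D2, so these counts of falls and rises are not like for like. The number of probe sets that passed was 4469 without BB0540 and 4792 without BB405, and between 5050 and 7676 without any other animal or baseline array.

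The largest measured change was that of TMPRSS11B, a membrane-bound serine protease of squamous epithelia. Its level lay between 11.32 and 13.10 with a median of 12.62 (n = 11 arrays) at baseline and between 2.44 and 3.27 with a median of 2.69 (n = 6) at 2D2. The groups did not overlap, and in 5 of 6 2D2 arrays the gene was below the array's own 10th percentile, so it was at the bottom of the scale there. The measured change, -9.77 ± 0.22 (SE) on the log2 scale with an adjusted p of 2.93e-11, can for that reason be read only as a limit, and its rank among the falls is not settled. CRNN, which encodes cornulin, a late differentiation protein of squamous cells, went from 11.79 to 13.42 (median 13.13) at baseline to 3.62 to 5.50 (median 3.97) at 2D2. Without overlap between the groups, it fell by 8.70 ± 0.26, or 414-fold, with an adjusted p of 5.04e-10. SPINK7, a serine protease inhibitor, fell by 8.85 ± 0.52. Its baseline spread was wider, from 8.28 to 13.72, and its 2D2 levels lay between 3.14 and 4.57. Not every large fall was so clean: SPINK6, a kallikrein inhibitor, had baseline levels from 4.15 to 13.51 against 3.97 to 4.80 at 2D2, so the groups overlapped, and it fell by 6.41 ± 1.12.

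**Figure D2:**
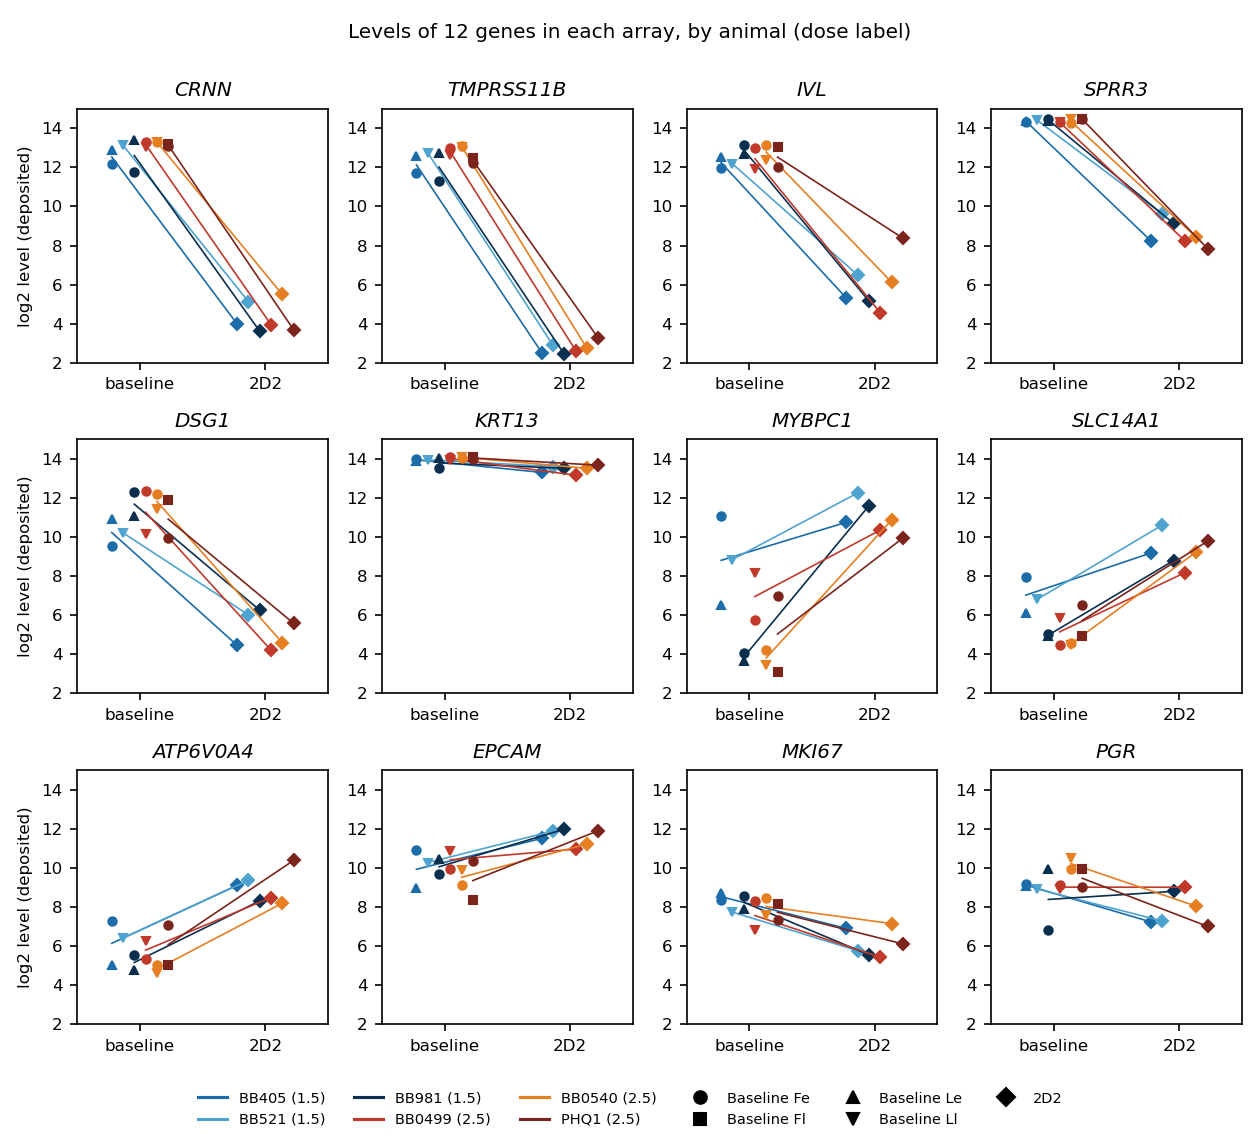
Deposited log2 level of 12 genes in each of the 17 arrays, coloured by animal with the dose label in brackets; baseline symbols give the cycle phase (Fe early follicular, Fl late follicular, Le early luteal, Ll late luteal), diamonds are 2D2 arrays, and lines join each animal's baseline mean to its 2D2 array. CRNN, TMPRSS11B, IVL, SPRR3 and DSG1 fell without overlap, KRT13 at 2D2 lay between 13.17 and 13.68, SLC14A1, ATP6V0A4 and EPCAM rose without overlap, and the PGR groups overlapped.

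Genes of the cornified envelope, the cross-linked protein shell of mature squamous cells, fell nearly as a whole. Of 16 measured genes of that list 15 fell and 0 rose, with a median log2 change of -4.37, and 13 of them had every 2D2 array below every baseline array. The remaining gene, TCHH, had -2.31 and did not pass. SPRR3, a small proline-rich precursor of the envelope, had baseline levels between 14.26 and 14.48 with a median of 14.40, close to the highest value in the files, 14.57. At 2D2 it lay between 7.85 and 9.60 with a median of 8.33. That is a change of -5.86 ± 0.17 (SE) or 58-fold lower with an adjusted p of 5.04e-10, and another probe set of SPRR3 gave -6.57. IVL, which encodes the scaffold protein involucrin, went from 11.91 to 13.16 (median 12.53) at baseline to 4.56 to 8.38 (median 5.72) at 2D2, without overlap. Its fall of 6.55 ± 0.41 was smallest in PHQ1 (-4.15) and largest in BB0499 (-7.88). LORICRIN, the main envelope protein of cornified skin, fell by 8.02 ± 0.87 and CNFN, cornifelin, by 4.85 ± 0.15. KRTDAP, a secreted protein of differentiating keratinocytes, fell by 6.56 ± 0.57. The spread of KRTDAP at 2D2 was wide, from 5.23 to 11.08, but still below the baseline range of 13.87 to 14.16. Of 5 measured transglutaminases, the enzymes that cross-link the envelope, 4 fell with a list median of -4.32: TGM1 fell by 5.37 ± 0.30, TGM5 by 5.15 ± 0.24 and TGM3 by 4.32 ± 0.61, the last with overlap between the groups.

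The proteases and inhibitors that govern shedding fell on both sides. Of 18 squamous proteases 14 fell and 0 rose, with a median of -3.16, and 9 did not overlap with baseline. KLK12, a kallikrein, had baseline levels from 12.27 to 13.13 (median 12.89) and 2D2 levels from 4.38 to 7.97 (median 5.53). It fell by 7.03 ± 0.37 or 130-fold, and other probe sets of KLK12 gave -6.85 and -6.83. TMPRSS11D, a protease of airway and squamous surfaces, fell by 3.08 ± 0.20, from 12.59 to 13.38 down to 8.80 to 10.92. Other kallikreins on the list had -5.99 (KLK6), -5.32 (KLK5) and -3.35 (KLK7), all past the threshold. The 4 members of the list that did not pass were membrane proteases: ST14 had -0.16, PRSS8 -0.66, TMPRSS11E -0.47 and TMPRSS4 0.40. Other membrane proteases fell, with -4.22 for TMPRSS11F and -0.87 for TMPRSS11A beside TMPRSS11B and TMPRSS11D. Of 17 protease inhibitors 14 fell and 1 rose, with a median of -3.37. SERPINB13 fell by 3.73 ± 0.25 and CSTB, the cysteine protease inhibitor cystatin B, by 1.65 ± 0.12, both without overlap. The inhibitor that rose was WFDC2, which is better known from columnar and glandular epithelium. Its level was 10.10 to 12.99 (median 10.74) at baseline and 13.00 to 13.78 (median 13.19) at 2D2. Every 2D2 array lay above every baseline array, narrowly, and the rise was 2.18 ± 0.42 with an adjusted p of 0.0035.

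Keratins of the upper layers fell. Of 11 suprabasal keratins 9 fell and 0 rose, with a median of -1.95. KRT1, a keratin of cornifying epithelium, had 9.18 to 13.65 (median 12.83) at baseline and 4.70 to 7.55 (median 5.61) at 2D2 and fell by 6.66 ± 0.57. KRT78 fell by 5.69 ± 0.36 and KRT80 by 3.46 ± 0.24, and neither overlapped with baseline. KRT13, the main keratin of internal stratified epithelium, changed far less. It went from 13.54 to 14.12 (median 14.02) to 13.17 to 13.68 (median 13.52), with overlap, a fall of 0.52 ± 0.10 with an adjusted p of 0.00444. In the list of the basal layer 0 of 8 genes fell and 4 rose, with a median of 0.45. These were KRT19 with 2.00 ± 0.63, the hemidesmosome integrin ITGB4 with 0.61 ± 0.15, CAV1, the main protein of caveolae, with 0.46 ± 0.13, and ITGA6 with 0.30. KRT19 is also a keratin of simple epithelium and was the only keratin measured in the basal list, since KRT5 and KRT14 were not analysed here. It counts among the columnar genes too, and its call was lost in 10 of 16 fits with an animal or array left out, with a highest adjusted p of 0.105. Its baseline ranged from 6.89 to 13.33, against 13.31 to 13.74 at 2D2. The count of 4 basal genes was less firm than that of the upper layers: it was 1 without PHQ1, BB0499 or BB405 and 2 without BB521 or without 1 of 3 single baseline arrays (early follicular of BB0499, late follicular of PHQ1, early luteal of BB405). TP63, the master factor of stratified epithelium, had -0.24 and did not pass.

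Desmosomes, the adhesion plaques between squamous cells, fell in 11 of 12 measured genes, with a median of -1.16. The members differed in size of change. DSG1, the desmoglein of the upper layers, had baseline levels of 9.56 to 12.37 (median 11.08) and 2D2 levels of 4.22 to 6.26 (median 5.10), a fall of 5.91 ± 0.46 or 59.9-fold. DSG3, the desmoglein of the lower layers, fell by 1.54 ± 0.17, from 12.29 to 12.75 down to 9.99 to 11.60, also without overlap. PKP1, a plakophilin of suprabasal cells, fell by 2.46 ± 0.29, and PKP4 rose by 0.47. Of 8 gap junction genes only the connexin GJB6 passed, with a fall of 4.08 ± 0.39 from 10.88 to 12.78 down to 6.27 to 9.16. Tight and adherens junctions had no common direction: 4 of 20 rose (20.0%), 3 fell (15.0%) and the median was 0.03. Among all genes 13.2% were called higher and 13.0% lower. The adhesion gene NECTIN4 fell by 1.06 ± 0.14 without overlap and TJP1, a scaffold protein of tight junctions, by 0.35 ± 0.09, while its relative TJP3 rose by 0.85 ± 0.19. Without PHQ1, BB981 or BB0540 the 4 rises became 1, and without BB405 the 3 falls became 1.

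Among 24 transcription factors of squamous epithelium 13 fell and 1 rose, with a median of -0.47, and 8 fell without overlap. GRHL3, a grainyhead factor needed for the epithelial barrier, went from 10.15 to 11.14 (median 10.57) to 6.61 to 8.35 (median 7.78), a fall of 2.95 ± 0.19. PRDM1, a repressor active in terminally differentiating cells, fell by 2.42 ± 0.17 and HOPX fell by 2.62 ± 0.22, although another probe set of HOPX gave 0.53. OVOL1 had -3.04, KLF4 -1.90 and ZNF750 -1.68, all factors of late differentiation and all past the threshold. The factor that rose was OVOL2, with 0.77, a call lost without BB0540.

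Lipid genes fell along with the envelope. Of 22 genes of barrier lipid synthesis 17 fell and 0 rose, with a median of -1.72, and 11 did not overlap with baseline. DGAT2, the last step of triglyceride synthesis, fell by 3.56 ± 0.29, the lipoxygenase gene ALOX12 by 3.46 ± 0.28 and the fatty acid elongase gene ELOVL6 by 2.59 ± 0.19. The barrier lipoxygenases ALOX12B and ALOXE3 had -6.07 and -4.54 and passed, whereas SPTLC1, SPTLC2 and SPTLC3, subunits of the initial enzyme of sphingolipid synthesis, had 0.08, -0.34 and -0.57 and did not. Of 15 cholesterol synthesis genes 13 fell and 0 rose, with a median of -1.05. SQLE, a controlling step of that pathway, went from 10.17 to 11.11 (median 10.59) to 7.66 to 8.90 (median 8.01), and fell by 2.45 ± 0.18 without overlap. DHCR7 fell by 2.10 ± 0.20 and TM7SF2 by 1.87 ± 0.17.

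**Figure D3:**
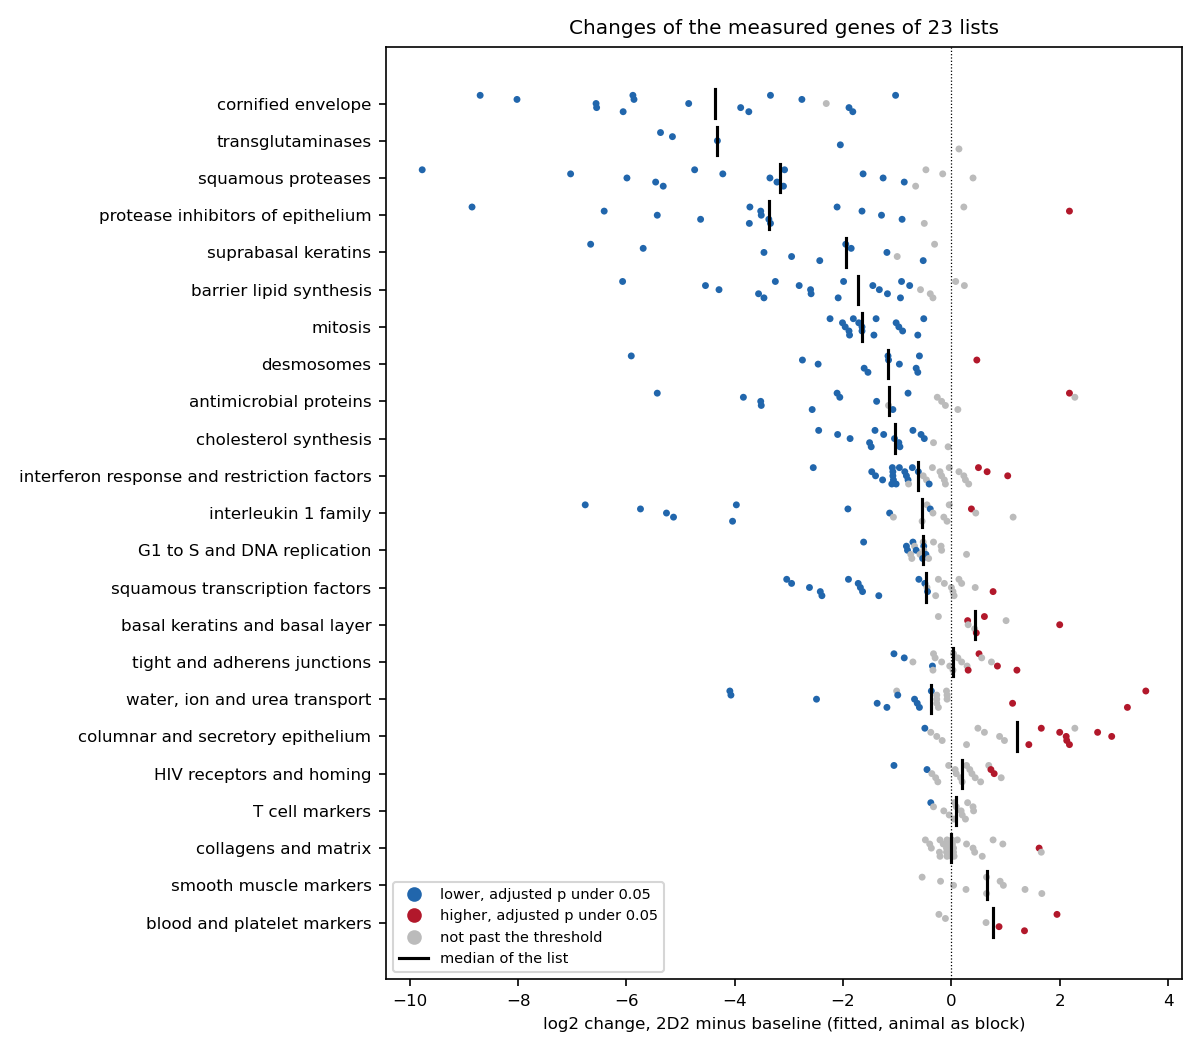
Fitted log2 change (2D2 minus baseline) of each measured gene in 23 lists, as points, with the median of each list as a bar; blue points passed as lower, red points as higher, grey points did not pass. The medians ran from -4.37 (cornified envelope) to 1.20 (columnar and secretory epithelium), and the list of mitosis had 16 of 16 genes lower.

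Central metabolism moved less. Vaginal squamous cells are known for storing glycogen, yet of 10 glycogen genes 1 rose and 0 fell, with a median of 0.10. PPP1R3D, which targets a phosphatase to glycogen, rose by 0.74 ± 0.21 (not without BB0540), while GYS1, glycogen synthase, had -0.50 ± 0.23 and an adjusted p of 0.128. Of 18 genes of glycolysis and the hypoxia response 9 fell (50.0%) and 1 rose (5.56%), with a median of -0.40. The hexokinase gene HK2 fell by 3.20 ± 0.49, from 8.47 to 11.72 down to 6.10 to 7.47, and the brain-type aldolase gene ALDOC by 2.20 ± 0.18. Respiratory chain genes fell in 7 of 25 (28.0%) and rose in 1 (4.0%), with a median of -0.18. The 7 became 2 to 4 without BB981, BB0499, BB405 or BB0540. They became 4 without the late luteal array of BB0499 or any of the 5 early follicular arrays. The exception, SDHA of complex II, rose by 0.98 ± 0.15 without overlap. Of 24 cytosolic ribosomal protein genes 2 rose (8.33%) and 1 fell (4.17%), with a median of 0.14.

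The genes of mitosis fell together. All 16 measured genes of mitosis fell, with a median of -1.65 and changes from -2.24 to -0.51, and 8 of them had every 2D2 array below every baseline array. TOP2A, a topoisomerase of dividing cells, had 8.69 to 10.06 (median 9.34) at baseline and 6.16 to 8.80 (median 7.29) at 2D2, with a slight overlap through BB405. Its fall was 1.89 ± 0.24 with an adjusted p of 0.000224. The mitotic kinase CDK1 went from 6.44 to 8.42 (median 7.06) to 4.35 to 6.33 (median 5.40) and fell by 1.88 ± 0.26 without overlap. MKI67, the proliferation marker, fell by 1.81 ± 0.27, most in BB981 and least in BB0540, where it changed by -2.70 and -0.87. Among genes of DNA replication 8 of 19 fell, with a median of -0.53, and 4 fell without BB0540. UHRF1, which maintains DNA methylation at replication, fell by 1.62 ± 0.29 and the replication licensing factor CDT1 by 0.81 ± 0.16.

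The rises were of other kinds of genes. MYBPC1, a myosin-binding protein of slow muscle, had the largest, 4.80 ± 0.88 or 27.9-fold, with an adjusted p of 0.00277. Its baseline spread was very wide, from 3.08 to 11.08 with a median of 5.76, against 9.95 to 12.26 with a median of 10.81 at 2D2. The change was 1.95 in BB405, whose early follicular array was already at 11.08, and 7.77 in BB981. The urea transporter SLC14A1 was clearer: 4.46 to 7.97 (median 5.05) at baseline and 8.18 to 10.62 (median 9.21) at 2D2, without overlap, a rise of 3.59 ± 0.37 or 12-fold. ATP6V0A4, a subunit of the proton pump of acid-secreting cells, rose by 3.25 ± 0.37 from 4.61 to 7.25 up to 8.18 to 10.37. RASL11B, a small GTPase of the Ras family, rose by 3.37 ± 0.34 from 3.70 to 6.65 up to 7.63 to 8.95. These 3 genes had no overlap and the smallest adjusted p of the leading rises, between 3.98e-05 and 9.34e-05.

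Further large rises without overlap were those of the peptide transporter SLC15A2 (3.04 ± 0.63), PRR15L (2.99 ± 0.43), the basement membrane netrin NTN4 (2.92 ± 0.49) and the death-associated kinase DAPK1 (2.91 ± 0.68). VNN2, a vanin, rose by 4.45 ± 0.89, the protocadherin PCDH8 by 3.27 ± 0.83, the sialyltransferase ST8SIA6 by 3.01 ± 0.44, POU2AF3 by 2.94 ± 0.61, the sorting nexin SNX31 by 2.93 ± 0.73, the adhesion receptor ADGRF1 by 2.88 ± 0.73 and WDR72 by 2.81 ± 0.84. In each of these, 1 or more baseline arrays reached the 2D2 range. Without BB0540 the adjusted p passed 0.05 for ADGRF1, SNX31 and WDR72, and the largest over any single animal or baseline array left out were 0.0637, 0.0652 and 0.0771. SNX31 was also lost without BB981. WDR72 was also lost without PHQ1, BB981 or BB405 and without 4 single baseline arrays, one each of BB0499, BB0540, PHQ1 and BB405.

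Columnar and secretory epithelium, which lines the cervix and glands, was the list with the highest median, 1.20: 8 of 18 genes rose and 1 fell. DMBT1, a secreted scavenger protein of mucosae, rose by 2.96 ± 0.65 and was higher in 5 of 6 animals, FOXA1, a factor of glandular epithelium, by 2.12 ± 0.45, and PIGR, which carries immunoglobulins across epithelium, had 2.13. EPCAM, an adhesion molecule of simple epithelium, went from 8.35 to 10.89 (median 9.94) to 10.95 to 11.97 (median 11.69), a rise of 1.66 ± 0.36 without overlap. Not all columnar genes followed: KRT8 had 0.49, KRT7 0.98, AGR2 0.28 and PAX8 -0.17, and none passed. The goblet cell peptide TFF3 was the gene that fell, with -0.49, a call lost without BB981, BB0499, BB405 or BB0540 or without the early follicular array of BB0540. Of 7 mucin genes 1 fell (14.3%, beside 13.0% of all genes), and the median was -0.10. It was MUC15, by 1.15 ± 0.31, which did not pass without BB0499 or BB405. Of 5 genes of ciliated cells 2 rose, CAPS by 0.44 ± 0.12 and FOXJ1, the master factor of cilia, by 0.76 ± 0.24, whose baseline range of 5.68 to 7.70 overlapped with 5.94 to 8.52. Both calls were lost without PHQ1 or BB0540, CAPS also without BB0499, and FOXJ1 also without BB981, BB405, BB521 or any of 4 single baseline arrays.

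Transporters went both ways, and their calls are given beside 13.2% higher and 13.0% lower among all genes. Of 21 genes of water, ion and urea transport 10 fell (47.6%) and 3 rose (14.3%), with a median of -0.37. SLC26A9, an epithelial chloride channel, fell by 4.07 ± 0.22 from 8.06 to 9.72 down to 4.13 to 5.46, and the ammonia transporter RHCG and the water channel AQP5 had -4.09 and -2.49. The rises were SLC14A1, ATP6V0A4 and the sodium pump subunit ATP1B1, with 1.13. Of 19 nutrient transporters 6 fell (31.6%) and 4 rose (21.1%), with a median of -0.52. The glucose transporters SLC5A1 and SLC2A1 fell by 1.41 ± 0.24 and 1.01 ± 0.20. The 4 rises became 2 without PHQ1, BB981 or BB0540.

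Defence genes of the epithelium fell in part. Of 17 antimicrobial genes 10 fell and 1, WFDC2, rose, with a median of -1.16. PI3, the elastase inhibitor elafin, had 13.63 to 14.05 (median 13.91) at baseline and 9.04 to 12.49 (median 10.20) at 2D2, a fall of 3.52 ± 0.35 without overlap. It dropped by 4.97 in PHQ1 and dropped by 1.31 in BB981. S100A12 fell by 3.84 ± 0.30 from 7.97 to 10.27 down to 3.69 to 6.33, and PGLYRP3, a bacterial cell wall receptor, by 2.06 ± 0.19. S100A12 is also a neutrophil gene. The only other neutrophil gene measured, CSF3R, had 0.62 ± 0.32 and did not pass, and the part of neutrophils in the fall was not tested. S100A9, which forms calprotectin with S100A8, fell by 0.80 ± 0.12 from 14.08 to 14.22, near the top of the scale, to 12.90 to 13.85. In the S100 family as a whole 4 of 13 fell (30.8%, beside 13.0% of all genes) and the median was 0.09.

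Of 19 genes of the interleukin 1 family and its pathway 9 fell and 1 rose, with a median of -0.54. IL36A had 11.71 to 13.28 (median 12.80) at baseline and 4.63 to 9.53 (median 6.41) at 2D2, a fall of 5.74 ± 0.56. Its antagonist IL36RN fell by 6.76 ± 0.60 and IL1RN, the interleukin 1 receptor antagonist, by 4.04 ± 0.25, each without overlap, so agonists and antagonists fell in the same biopsies. IL1A, IL1B, IL18 and IL33 had -1.07, 0.45, -0.04 and 1.14, and none passed. The 1 rise, GSDMD with 0.37, was lost without PHQ1, BB981, BB0499, BB0540 or BB521 and without 7 of the single baseline arrays. Of 36 cytokines and chemokines 7 fell (19.4%) and 1 rose (2.78%), with a median of 0.00, beside 13.0% lower and 13.2% higher among all genes. The interferon-induced chemokine CXCL11 fell by 1.03 ± 0.12 and the lymphoid chemokine CCL21 by 0.48 ± 0.10, and CXCL6 rose by 0.62 ± 0.15. The 7 falls became 3 or 4 without PHQ1, BB981 or BB0540 or without the early follicular array of BB0540 or the late follicular array of PHQ1.

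Among 33 genes of the interferon response, restriction factors included, 17 fell and 3 rose, with a median of -0.61. ISG15, a ubiquitin-like interferon product, had 9.46 to 12.57 (median 11.55) at baseline and 8.39 to 9.19 (median 8.96) at 2D2, a fall of 2.55 ± 0.35 without overlap. The antiviral GTPase MX2 fell by 1.40 ± 0.22 and HERC6, a ligase induced by interferon, by 1.47 ± 0.29, both with overlap. The animals differed: the list mean changed by -0.86 to -0.43 in 5 animals and by 0.36 in BB521. The 17 falls became 9 without PHQ1 or BB0499, 10 without BB981 and 11 without BB405 or BB0540. The 3 rises (SLFN11, IFITM1 and IFI35) became 1 without PHQ1, BB981 or BB405 and 0 without BB0540.

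The lists of steroid receptors and their targets had smaller median changes than the list of the cornified envelope. PGR, the progesterone receptor, had 6.83 to 10.49 (median 9.09) at baseline and 7.0 to 9.0 (median 7.65) at 2D2. The groups overlapped, and the change of -1.28 ± 0.46 had an adjusted p of 0.0608. It was lower in 5 of 6 animals, but by only -0.01 in BB0499. The exception was BB981, whose early follicular array gave the lowest baseline value, and without that array or without BB981 the fall passed. ESR1, estrogen receptor alpha, had -0.25 ± 0.26 (adjusted p of 0.493) and NR3C1, the glucocorticoid receptor, 0.28 ± 0.10 (adjusted p of 0.0629; it passed without the early follicular array of BB981). Of 23 estrogen-responsive genes 6 fell (26.1%) and 0 rose, beside 13.0% lower and 13.2% higher among all genes. Their median was -0.39, and 3 fell without BB0499 or BB405. The secreted glycoprotein OLFM1 fell by 1.38 ± 0.28, the growth factor AREG by 1.29 ± 0.34 (lost without BB0499 or BB405) and the carbonic anhydrase CA12 by 0.63 ± 0.15.

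Among 28 genes known to respond to progestins or glucocorticoids, 6 were called higher and 3 lower, with a median of 0.20, beside 13.2% higher and 13.0% lower among all genes. TSC22D3, a gene induced by glucocorticoids, had 9.08 to 10.80 (median 10.28) at baseline and 10.87 to 11.74 (median 11.29) at 2D2. It rose by 1.14 ± 0.23 without overlap, with an adjusted p of 0.00486. ZBTB16 and KLF15 had 1.43 and 1.29 and passed, and FKBP5 rose by 0.52 ± 0.17 with an adjusted p of 0.042, a call that held in only 4 of the 16 fits with an animal or baseline array left out. The 6 rises became 1 to 3 without BB981, BB0499, BB405 or BB0540 or without 1 of 5 single baseline arrays: the late follicular array of PHQ1 and the early follicular arrays of BB981, BB0499, BB405 and BB0540. PRLR, the prolactin receptor, fell with -1.67, and the 3 falls became 1 without BB981. Among 29 receptors and enzymes of the steroid, retinoid and thyroid pathways 7 fell (24.1%) and 1 rose (3.45%), with a median of -0.15. The retinoid receptors RARG and RXRA fell by 0.57 ± 0.09 and 0.63 ± 0.11, while RARB, itself induced by retinoic acid, had 1.71 and passed; that rise was lost without PHQ1, BB405 or BB0540 and without 5 of the single baseline arrays.

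Genes of HIV entry and lymphocyte homing were called at a rate near that of all genes. Of 19 measured, 2 rose (10.5%) and 2 fell (10.5%), beside 13.2% and 13.0% of all genes, with a median of 0.20. SDC4 and SDC1, heparan sulfate proteoglycans that bind the virus, had a rise of 0.73 ± 0.18 and a fall of 0.45 ± 0.12. The lectin CLEC7A fell by 1.06 ± 0.29, and ITGB1 had 0.79 and passed. These calls were not firm: SDC4 was lost without BB981, CLEC7A without PHQ1, and SDC1 without BB0499, BB405 or BB0540, and the list had 0 rises without BB981 and 1 without PHQ1 or BB405. CD4, the main receptor, had 5.44 to 6.54 (median 5.71) at baseline and 5.41 to 6.66 (median 6.40) at 2D2, a change of 0.44 ± 0.18 with an adjusted p of 0.0935. The coreceptor CXCR4 had 0.34 ± 0.23, and ITGB7 and ITGAE, integrins of mucosal T cells, had 0.54 ± 0.23 and 0.38 ± 0.17. None of these 4 passed with all 17 arrays, though CD4 passed without BB521, ITGB7 without the late luteal array of BB0499 and ITGAE without the early luteal array of BB405.

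Markers of immune cells were mostly below the threshold, as were genes in general, of which 13.2% passed as higher and 13.0% as lower. In the T cell list 0 of 13 rose and 1 fell (7.69%). That fall, of FOXP3 by 0.38 ± 0.12, had an adjusted p of 0.0346 in limma. The call was lost in 8 of the 16 fits with an animal or array left out. In the natural killer list 0 of 11 passed, and the granule protease GZMA had -0.44 ± 0.24, which passed as a fall without BB981 or without its early follicular array. Of 10 genes of B and plasma cells 1 rose, CD22 by 0.76 ± 0.19, lost without BB981, BB0499 or BB0540. Of 17 macrophage and dendritic genes 4 rose (23.5%) and 1 fell (5.88%). The signalling adaptor TYROBP rose by 1.35 ± 0.40, AIF1 had 1.30, and the complement genes C1QB and C1QC rose by 1.19 ± 0.36 and 1.05 ± 0.31. Their partner C1QA fell with -0.51, a call lost in 9 of 16 fits with an animal or array left out. The 4 rises became 0 without BB981, BB0499 or BB0540, 1 without BB405, and 2 without the early follicular array of BB0540 or the late follicular array of PHQ1. CD1A, a marker of Langerhans cells, fell by 1.23 ± 0.21, from 5.20 to 8.29 (median 5.68) to 4.16 to 5.82 (median 4.89), with overlap. The Langerhans list had 7 measured genes, with 1 lower, 1 higher (14.3% each) and a median of 0.01. EPCAM, which is also an epithelial gene, was the rise with 1.66, and FCER1A had 0.62 and did not pass. The mast cell receptor KIT rose by 1.43 ± 0.38, lost without BB981, BB0499, BB405 or BB0540. The 5 other mast cell genes did not pass, so 16.7% of that list was called higher. Of 6 blood and platelet genes 3 rose (50.0%). They were the blood marker HBB with 1.35, the platelet chemokine PPBP with 1.95 ± 0.56 and ALAS2, a heme enzyme of red cells, with 0.88 ± 0.27. The 3 became 1 without any of the same 4 animals. HBB kept its call in all 16 fits with an animal or array left out.

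Stromal genes varied widely among the animals. Among 11 fibroblast, 10 smooth muscle and 18 endothelial genes 0 passed in limma, with medians of 0.46, 0.65 and 0.28. MYH11, the myosin of smooth muscle, ranged from 5.47 to 11.33 at baseline and from 5.98 to 12.43 at 2D2, with a change of 1.67 ± 0.90 and an adjusted p of 0.194, and it passed without BB521 (2.43). The mean change of the smooth muscle list ran from -2.61 in BB521 to 3.69 in BB0499, and that of 29 collagen and matrix genes from -1.73 to 2.39 in the same animals. By contrast the cornified envelope changed by -5.26 to -3.66 and mitosis by -2.28 to -0.92 in the 6 animals. In the matrix list only TNC, tenascin C, rose, by 1.62 ± 0.28, from 5.90 to 9.11 up to 8.42 to 10.48 and in 6 of 6 animals. Of 22 matrix proteases and inhibitors 4 rose (18.2%) and 1 fell (4.55%), beside 13.2% higher and 13.0% lower among all genes. The rises included ADAMTS9 with 0.96 ± 0.23 and MMP28 with 1.12 ± 0.29. The 4 rises became 0 without BB0540, 1 without BB981 and 2 without PHQ1.

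**Figure D4:**
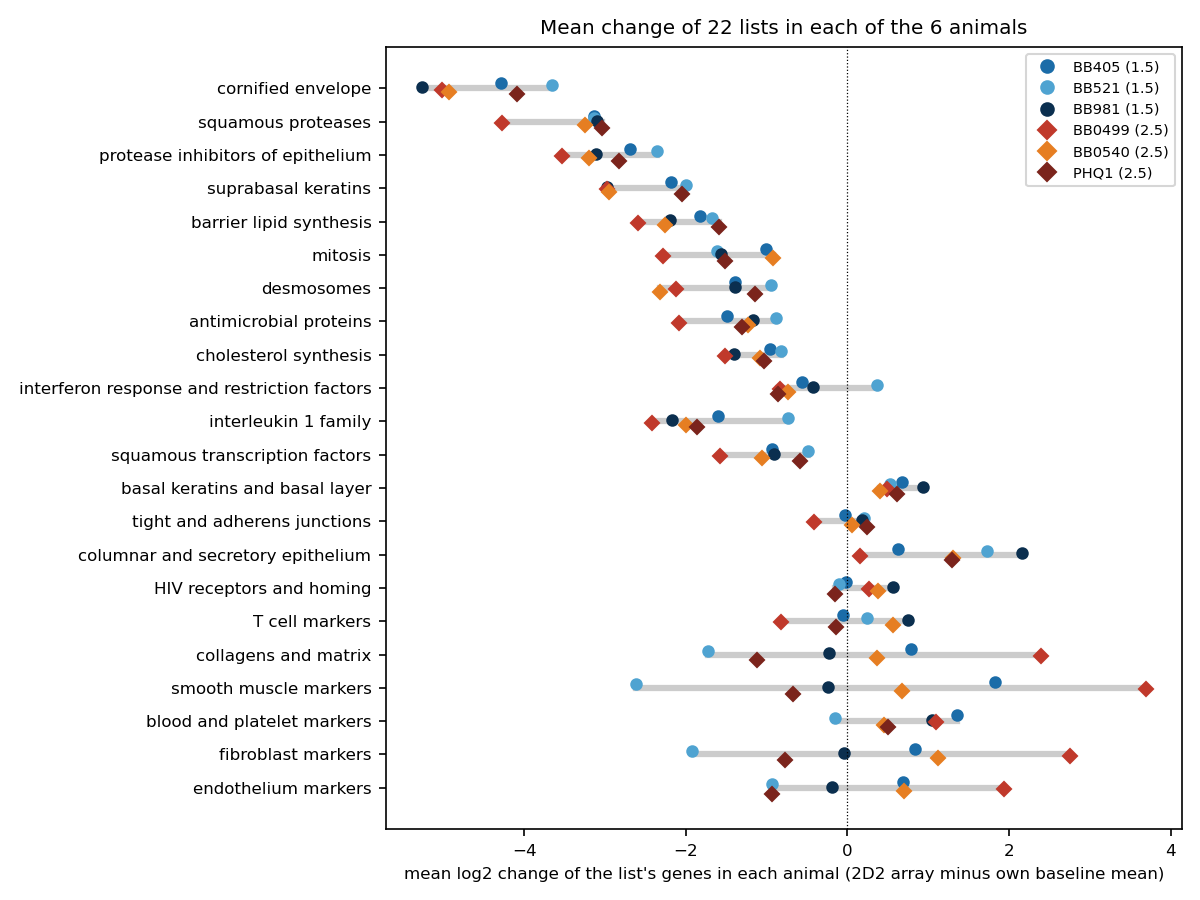
Mean log2 change of 22 lists in each animal, as the 2D2 array minus the mean of the animal's own baseline arrays (circles 1.5, diamonds 2.5), with grey bars from the lowest to the highest animal. The cornified envelope lay between -5.26 and -3.66 in all 6 animals, whereas smooth muscle ran from -2.61 in BB521 to 3.69 in BB0499.

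Growth factor pathways were called at rates near those of all genes, 13.2% higher and 13.0% lower. In the EGF family 2 of 13 rose and 2 fell (15.4% each). The ligand TGFA fell by 1.57 ± 0.24 without overlap, and LRIG1, an inhibitor of the EGF receptor, rose by 1.10 ± 0.18. In the WNT pathway 4 of 32 rose and 4 fell (12.5% each). Among them were the receptors FZD3 and FZD6 with rises of 0.56 ± 0.14 and 0.45 ± 0.11 and FZD5 with a fall of 0.79 ± 0.17. In the TGF-beta and BMP pathway 4 of 26 rose (15.4%) and 2 fell (7.69%). The signal mediators SMAD3 and SMAD4 rose by 0.97 ± 0.18 and 0.58 ± 0.11, both without overlap, and the matrix protein THBS1 fell by 1.29 ± 0.24. In the NOTCH pathway 2 of 20 rose and 2 fell, and HES2, a target of the pathway, fell by 0.93 ± 0.19. These small counts moved with single animals. In the EGF list the 2 rises became 1 without PHQ1, BB981, BB405 or BB0540 and the 2 falls became 1 without BB0499 or BB405. In the WNT list the 4 rises became 2 without PHQ1 or BB405 and the 4 falls became 2 without BB981, BB0499 or BB405. In the NOTCH list the 2 rises became 0 without BB405 or BB0540, 1 without BB981 and 4 without the early follicular array of PHQ1, and the 2 falls became 1 in 14 of 16 fits with an animal or array left out.

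The remaining lists are given beside the share of all genes, 13.2% higher and 13.0% lower. Of 24 complement and antigen presentation genes 5 rose (20.8%) and 1 fell (4.17%), with a median of 0.26. Among them were C4BPA with 1.02 and CFI, a complement inhibitor, with 0.99. The 5 rises became 0 without BB981 or BB0540, 1 without BB0499, 2 without BB405 and 8 without the early follicular array of PHQ1. Chaperones (21 genes) had 2 higher (9.52%) and 3 lower (14.3%), the small heat shock protein HSPB8 with -2.10. Immediate early and stress genes (17) had 2 higher and 2 lower (11.8% each). The 2 chaperone rises became 1 in 9 of the 16 fits with an animal or array left out, the 2 rises of the immediate early list became 1 in 13 of them, and its 2 falls became 1 without BB981 or BB0540. In oxidant defence (19) 2 rose (10.5%) and 3 fell (15.8%). Among the falls were DUOX1 and its partner DUOXA1, which make hydrogen peroxide at epithelial surfaces, with -1.19 and -1.37. Of 8 melanocyte and nerve genes 2 fell in limma with all 17 arrays and 0 fell without any animal other than BB521.

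The animals at 1.5 and at 2.5 were then compared with each other, which asks whether pooling them hides a difference of dose. Of 31624 probe sets 0 passed in limma for the change at 2.5 minus the change at 1.5, with a smallest adjusted p of 0.0762, and 1607 (5.08%) had an unadjusted p under 0.05. With 3 animals against 3 the median SE of this difference was 0.30, and differences of the size of a doubling were mostly undetected. In simulated data 11.9% of differences of 1 and 64.2% of differences of 2 on the log2 scale were recovered. These rates are for many changes planted together, so a lone difference would be found less often. CRNN changed by -8.56 at 1.5 and by -8.82 at 2.5, with a difference of -0.26 ± 0.53. Wider differences that did not pass were those of IL36A (-4.44 and -6.92, a difference of -2.48 ± 0.92), KRT1 (-7.68 and -5.72, a difference of 1.95 ± 1.04) and DMBT1 (4.08 and 1.94, a difference of -2.13 ± 1.20). The named genes with the smallest p were LOC695256 (1.80 ± 0.38), SFT2D3 (0.87 ± 0.19) and ERCC4 (-1.01 ± 0.22), each with an adjusted p of 0.907.

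The 3 animals labelled 0.5 at 2D2, with 6 baseline arrays of their own, were compared with the 6 animals at the higher doses. At 0.5 alone 0 of 31624 probe sets passed against baseline (0.0%), with a smallest adjusted p of 0.911. The test of the difference of changes, 1.5 and 2.5 minus 0.5, gave 3 probe sets (0.00949%), all lower at the higher doses, and 2642 (8.35%) with an unadjusted p under 0.05. Of the 3, 2 belong to SPRR3 and 1 to LOC717871. SPRR3 changed by -5.86 at the higher doses and -1.01 at 0.5, a difference of -4.85 ± 0.68 with an adjusted p of 0.0189, and its other probe set differed by -5.39. In the 3 animals at 0.5 SPRR3 changed by -3.74 (BB108), 0.02 (BB770) and 0.69 (PPi2), all above the range of -6.62 to -4.82 of the other 6. LOC717871 changed by -5.12 and -0.57, a difference of -4.55 ± 0.67 with an adjusted p of 0.0283. The baselines of this gene differed: they lay between 6.36 and 8.77 in the 3 animals at 0.5, at 8.67 in BB521 and between 10.10 and 12.45 in the other 5. At 2D2 BB108 was at 5.59, within the range of 5.50 to 6.26 of the higher doses. For SPRR3 all baseline arrays were between 14.17 and 14.48 except 1 of PPi2, at 12.64. PI3, next by p, differed by -3.49 ± 0.60 with an adjusted p of 0.101. The GAPDH 3' minus 5' difference lay at 1.39 to 2.67 in the 3 arrays at 0.5 and at 2.17 to 3.98 at the higher doses. With it as a further term 0 probe sets passed, and SPRR3 and LOC717871 differed by -4.45 ± 0.76 and -4.44 ± 0.78. Both calls rest on few animals. They were lost when BB770 or PPi2 was left out on the 0.5 side, and when any of BB981, BB405, PHQ1, BB0499 or BB0540 was left out on the other side, where the adjusted p of SPRR3 lay between 0.0546 and 0.126.

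The 3 animals at 0.5 were not alike for the genes that fell most. CRNN changed by -6.89 in BB108, -0.34 in BB770 and 0.87 in PPi2, and TMPRSS11B by -8.69, -0.81 and 1.28. So BB108 was near the range of the higher doses for these genes, which is -9.44 to -7.81 for CRNN, while BB770 and PPi2 were near 0. Their differences of -6.58 ± 1.21 and -7.03 ± 1.47 between the higher doses and 0.5 did not pass, with adjusted p of 0.169 and 0.288. BB108 did not stand with the higher doses in cell division: MKI67 changed by -0.28 there, by 0.84 in BB770 and by -0.55 in PPi2, against -2.70 to -0.87 at the higher doses. For the list of mitosis the median was -0.01 at 0.5, -1.42 at 1.5 and -1.61 at 2.5, and 0 of 16 genes passed in the test of the difference. MYBPC1 was higher than baseline in all 9 animals, with 1.63, 6.16 and 3.98 in the 3 at 0.5 and 1.95 to 7.77 in the others, with a difference of 0.88 ± 1.55. In simulated data the test with 6 against 3 animals recovered 34.3% of differences of 1 and 85.1% of differences of 2. Here too many changes were planted together, and a lone difference would be found less often.

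**Figure D5:**
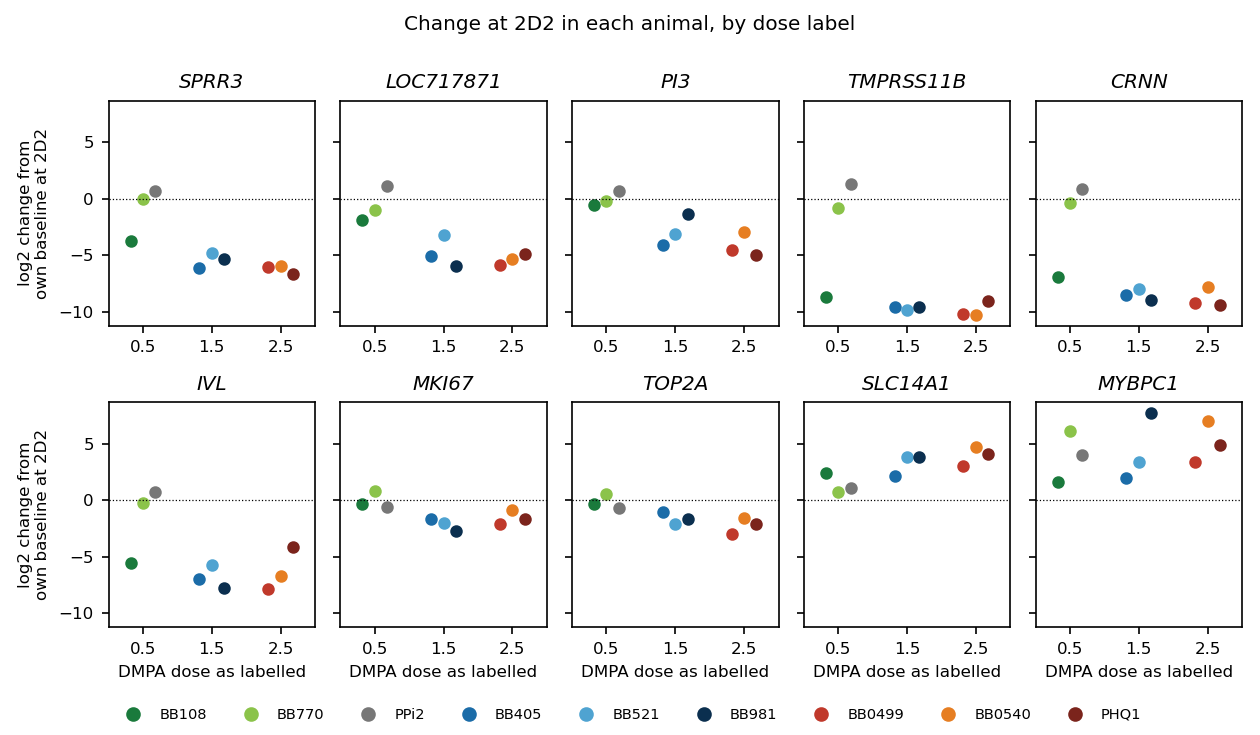
Log2 change of 10 genes at 2D2 in each of 9 animals, as the 2D2 level minus the mean of the animal's own baseline arrays, by dose label (0.5, 1.5, 2.5). SPRR3 lay between -6.62 and -4.82 at the higher doses and between -3.74 and 0.69 at 0.5; TMPRSS11B and CRNN were as low as -8.69 and -6.89 in BB108 at 0.5 but near 0 in BB770 and PPi2.

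The same 6 animals also had an array at the time labelled 1D4. Against the same baseline arrays, 8868 of 31624 probe sets (28.0%) passed at 1D4. Both times share these baseline arrays, so their values are given side by side. CRNN changed by -7.14 ± 0.57 at 1D4 and -8.70 ± 0.26 at 2D2, SPRR3 by -4.06 ± 0.44 and -5.86 ± 0.17, MKI67 by -2.07 ± 0.31 and -1.81 ± 0.27, MYBPC1 by 4.07 ± 0.88 and 4.80 ± 0.88, and PGR by -0.22 ± 0.38 and -1.28 ± 0.46. The median of the cornified envelope list was -3.84 at 1D4 and -4.37 at 2D2, and that of mitosis -1.75 and -1.65. The direct comparison of 2D2 with 1D4 within the animals gave 0 probe sets in limma, with a smallest adjusted p of 1.0, and 1187 (3.75%) with an unadjusted p under 0.05. The named genes with the smallest p were PRDM1 (-0.72 ± 0.19), SLC25A30 (-0.40 ± 0.10) and RASEF (-0.54 ± 0.15). In simulated data 71.6% of differences of 1 were recovered in this comparison. That rate is for many changes planted together, so a lone difference would be found less often.

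The comparison was repeated against baseline arrays of a single part of the cycle. Against early follicular arrays alone (5 animals) 14 of 16 cornified envelope genes fell, 12 of 18 squamous proteases and 10 of 16 mitosis genes, and against luteal arrays alone (5 animals) 14, 13 and 12. The median of the cornified envelope was -4.37 and -4.54. The rises in the columnar list became 3 and 3 of 18. Other lists also kept fewer calls. Interferon genes fell in 9 and 3 (17 in the full comparison), desmosomes in 5 and 7 (11) and DNA replication in 0 and 4 (8). Estrogen-responsive genes fell in 1 and 1 (6). The 4 rises of the basal layer and the 5 of complement and antigen presentation became 0 in both. The medians of these lists kept their signs. Over all probe sets 2016 passed against early follicular and 2052 against luteal arrays, each with fewer arrays than the full comparison.

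With the GAPDH 3' minus 5' difference of each array as a further term in the model, 210 probe sets passed, 43 higher and 167 lower. That measure separates the groups without overlap, so its part in the changes and that of the treatment cannot be told apart for most genes. Only part of the falls of the upper squamous layers were still called in that model. They were 11 of 16 cornified envelope genes (15 without that term) and 7 of 18 squamous proteases (14 without it). Of the protease inhibitors 6 of 17 remained (14 without it) and of the suprabasal keratins 3 of 11 (9 without it). The medians of these lists were -4.10, -2.89, -3.08 and -1.44. In the other lists few or no calls remained. Desmosomes had 1 of 12 with a median of -0.35, barrier lipid synthesis 2 of 22 with -1.16, squamous transcription factors 2 of 24 with -0.30 and the interleukin 1 family 1 of 19 with -0.28. Mitosis had 0 of 16 with a median of -1.34, cholesterol synthesis 2 of 15 with -0.85, interferon response 0 of 33 with -0.18, and columnar epithelium 1 of 18 with 1.36.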

How the data were processed

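RNA of vaginal biopsies was hybridised to a 1-colour Affymetrix rhesus macaque array. The deposited values are on the log2 scale, 1 per probe set and array. The submitters' processing notes name affy and Partek, and the background correction, normalization and summary method are not given in the sources used here. Control probe sets (158) were left out, and 31624 of 52707 probe sets with a mean over the 17 arrays at or above the 40th percentile (log2 5.51) were kept. That filter and the probe design for another macaque species limit what could be measured. Gene names came from the platform annotation: 24969 probe sets had 1 symbol, 361 had several and 27535 had none, and only probe sets with 1 symbol were named. Each gene was read from its brightest kept probe set.

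The test was limma 3.58.1 in R 4.3.3 (lmFit and eBayes, 10 residual degrees of freedom), with the animal named in the labels as a block and Benjamini-Hochberg adjustment over all kept probe sets. The 6 2D2 arrays came from separate animals and the 11 baseline arrays from the same 6 animals. The code was tested on simulated data, where 64.2% of changes of 1 and 92.5% of changes of 2 (log2) were recovered for 2D2 against baseline. Only 66 or 67 of 31624 probe sets were changed there at each size (0.5, 1 and 2), with independent noise. Since 23.1% passed in the real comparison of 2D2 with baseline, the adjusted threshold was stricter in that simulation. Its rates are only a rough guide. In the other comparisons 0 or 3 probe sets passed. There the planted changes eased the threshold, so the simulated rates are too high for a difference that stands alone. An exact permutation test within animals was used for the control transcripts. The comparison and the 54 gene lists were chosen with earlier results of these data known. The genes named are the 15 largest rises and falls with the same direction in all 6 animals (so that agreement of the animals is no separate evidence for them), up to 3 members of each list by smallest p, and fixed hormone, immune and epithelial genes. Other list members named with a log2 change alone were chosen after their values were seen. A few genes that this rule names are not reported here.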

Additional observations from a re-analysis of the deposited data

Results flagged for a closer look

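In 6 cases the change of 1 of the 6 animals stood apart from the other 5 by Dixon's test. This was looked for in 98 groups of values, and about 5.0% stand apart by chance. The rise of NTN4 was 4.49 in BB981 against 2.14 to 2.81 in the others, and the change of LY6G6C was -5.0 in BB405 against -7.23 to -6.60. BB0499 had the lowest list means of squamous proteases, -4.27 against -3.25 to -3.04, and of water, ion and urea transport, -0.88 against -0.52 to -0.32. BB521, the animal with 1 baseline array, had a mean change of 0.36 over the interferon list against -0.86 to -0.43, and of -0.58 over the WNT list against 0.12 to 0.40.

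The change at 1.5 and 2.5 differed from that at 0.5 in limma for LOC717871, by -4.55 (-5.12 against -0.57, adjusted p of 0.0283), and for both probe sets of SPRR3, by -4.85 (-5.86 against -1.01) and by -5.39 (-6.57 against -1.18), each with an adjusted p of 0.0189.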

How the results depend on the processing

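The pairing by animal is given by the labels. Without the animal block 6320 probe sets passed for 2D2 against baseline, compared with 7320 with it, 1 for the dose difference of 2.5 and 1.5, and 6 for the higher doses against 0.5. For 2D2 against baseline 3222 of 11244 passed with 1 probe set per gene, 2016 against early follicular and 2052 against luteal baselines, 588 with the animals at 1.5 alone, 2057 with those at 2.5 alone, 1594 with the actin and 210 with the GAPDH 3' minus 5' difference as a covariate. Leaving out an animal or a baseline array gave 4469 (without BB0540) to 7676, with 4792 without BB405. Of the 7320 calls, all kept their direction in every other setting that tested them, and 6908 did with the GAPDH covariate, where the named genes ADAMTS9 (-0.02) and CD22 (-0.06) turned sign; the cause was not tested. Array weights gave 1 call for the dose difference and 46 for the higher doses against 0.5, and the GAPDH covariate gave 0 for the latter. Leaving out an animal gave 0 to 1 and 0 to 20 for these comparisons. For 2D2 minus 1D4, 0 passed in every setting run, with 1187 at an unadjusted p under 0.05 in the full fit in limma. The GAPDH change against early follicular baselines was 1.04, with an exact p of 0.0625, the smallest that its 5 pairs can give. Of 152 called named genes, 115 passed in all 16 fits with an animal or array left out, 37 were lost in at least 1 and 0 turned direction. Levels near the array's 10th percentile, such as TMPRSS11B at 2D2, limit how large a fall can be measured.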
